A study of Mus musculus with 6 samples.

Results

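The genes described here encode the nuclear subunits of the mitochondrial respiratory chain and of ATP synthase. They were chosen by symbol alone, as every gene whose name starts with Ndufa, Ndufb, Ndufc, Ndufs or Ndufv and a number, with Uqcr, with Cox4 to Cox8 and the letter a, b or c, or with Atp5, and no measured value entered the choice. The rule matched 78 of 24421 listed genes, which are 35 genes of complex I, 8 of complex III, 18 of complex IV and 17 of ATP synthase. Ndufa4 and Ndufa4l2 were read with complex IV, to which the NDUFA4 protein belongs. Atp5s and Atp5sl carry the name but do not encode subunits of the enzyme, and they are named apart. Of the 78 genes, 76 reached a mean of 1 normalized count across the libraries and were tested. Ndufs5 and Cox8c were listed at 0 in every library. A near-identical copy of the Ndufs5 transcript lies elsewhere in the transcript set. Whether the counting lost its reads was not tested, so its 0 is not read as absence.

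RNA-seq was performed on TurboRFP-positive cells sorted from the olfactory bulb of 3 control and 3 Sox9 KO mice, to ask how loss of the transcription factor Sox9 changes gene expression in adult astrocytes. All 6 mice were adult males that had received AAV-GFAP-iCre-P2a-TurboRFP in the bulb, a virus in which the GFAP promoter, active in astrocytes, drives the recombinase Cre and a red fluorescent protein. The KO mice were Sox9fl/fl, a floxed allele held in the strain B6.129S7-Sox9tm2Crm/J, and the controls were C57BL/6J mice, called Sox9+/+ in the study's methods, without a floxed allele. The labels give C57BL/6 as the strain of both groups, and cells were collected 4 weeks after the injection. Both groups thus carried the virus and Cre, and no uninjected animals entered this comparison. Cells went straight into lysis buffer, so that they were not sorted again to measure purity, and the study judged purity by cell type markers in the RNA-seq. The study's results name C57BL/6J controls, while its reporting summary speaks of littermates for its experiments in general. Where the groups came from different lines, line and genotype cannot be told apart.

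Oxidative phosphorylation takes place at the inner mitochondrial membrane. Complex I accepts electrons from NADH, complex III passes them on to cytochrome c, complex IV hands them to oxygen, and the protons pumped on the way drive ATP synthase. Most subunits are encoded in the nucleus, some as tissue-specific isoforms from paired genes, and a few catalytic ones in the mitochondrial genome. Astrocytes are known for strong glycolysis, and they also hold respiring mitochondria. The mitochondrially encoded subunits were not analysed here, as no symbol of that kind was found in the tables.

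Between 18242129 and 86906527 reads fell on genes per library, and 1 read was worth between 0.395 and 1.58 normalized counts, the deposited unit, which is a read count divided by 1 size factor per library. Sox9 itself fell 95.4-fold, from 5556 ± 881 to 58.2 ± 5.88 normalized counts (SD, n = 3 per group). Markers of the labelled cell type moved as well. The sum of 8 astrocyte markers was between 241824 and 270245 normalized counts in the controls and between 24029 and 25965 in KO, and all 8 were called lower (adjusted p under 0.05), with a median log2 fold change of −3.63. The sum of 9 microglia markers was between 140113 and 165336 in the controls and between 497334 and 612838 in KO, and all 9 were called higher, with a median of 1.97. The sum of 10 neuron markers was between 17708 and 24012 in the controls and between 2662 and 4806 in KO, with 9 called lower and a median of −2.64. Markers of several other cell types were lower too. The KO to control ratio of the summed values was 0.372 for oligodendrocytes and 0.130 for their precursors. For mural and olfactory ensheathing cells it was 0.214 and 0.369. Fabp7 alone made up 13685 of the 16855 normalized counts of the ensheathing sum in control, and its log2 fold change was −1.62. Those of Frzb, Npy and Sox10 were −1.01, −0.60 and −1.43, with overlap between the groups for Npy. None of the sums given so far overlapped between the groups. For border macrophages and endothelial cells the ratio was 1.20 and 1.24, with overlap between the groups. In each of these 2 lists only 1 gene was higher in KO, Mrc1 (11774 in control, 18847 in KO) and Flt1 (592 and 1028). Of 6 border macrophage markers 4 were called lower and 1 higher, with a median of −0.73. Of 4 endothelial markers 1 was called lower and 1 higher, with a median of −0.46. Among all genes tested, 32.0% were called lower and 29.3% higher. The part of these markers in the results was not tested. In bulk RNA from sorted cells, fewer cells of a type and less RNA per cell cannot be told apart.

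Subunit genes of all 4 complexes were lower in Sox9 KO. Over the 78 genes the sum was 160405, 174658 and 153606 normalized counts in control replicates 1 to 3, against 107979, 88201 and 103673 in the KO replicates. Every KO library lay under every control library, and the mean in KO was 0.614 of that in control. As a share of all values without the ribosomal RNA precursor Rn45s, the genes made up 0.681%, 0.727% and 0.654% in the controls and 0.352%, 0.302% and 0.354% in KO. By complex, the KO to control ratio of the summed values was 0.592 for complex I, 0.577 for complex III, 0.627 for complex IV and 0.627 for ATP synthase.

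Each gene was compared with limma on log2(normalized count + 1) over 18413 genes, with Benjamini-Hochberg adjustment over all of them, and fold changes are KO over control. At an adjusted p under 0.05, the rule for a call throughout, 61 of the 76 subunit genes were lower and 1 was higher, beside 32.0% of all genes tested called lower and 29.3% called higher. With a fold change of at least 1.5 added, 48 were lower and 1 higher, beside 28.8% and 22.2% of all genes. The 3 KO values lay under the 3 control values without overlap for 63 genes and above them for 1, beside 34.7% and 32.4% of all genes. The only rise called lay in complex IV. No other subunit gene was higher at an unadjusted p under 0.05 or was called higher by edgeR or DESeq2. The median log2 fold change of the 76 genes was −0.71, with quartiles of −1.01 and −0.48, and that of all genes tested was −0.07. Without Atp5s, Atp5sl and the genes under 10 normalized counts, 72 genes remained with a median of −0.73 and the same counts of calls.

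**Figure D1:**
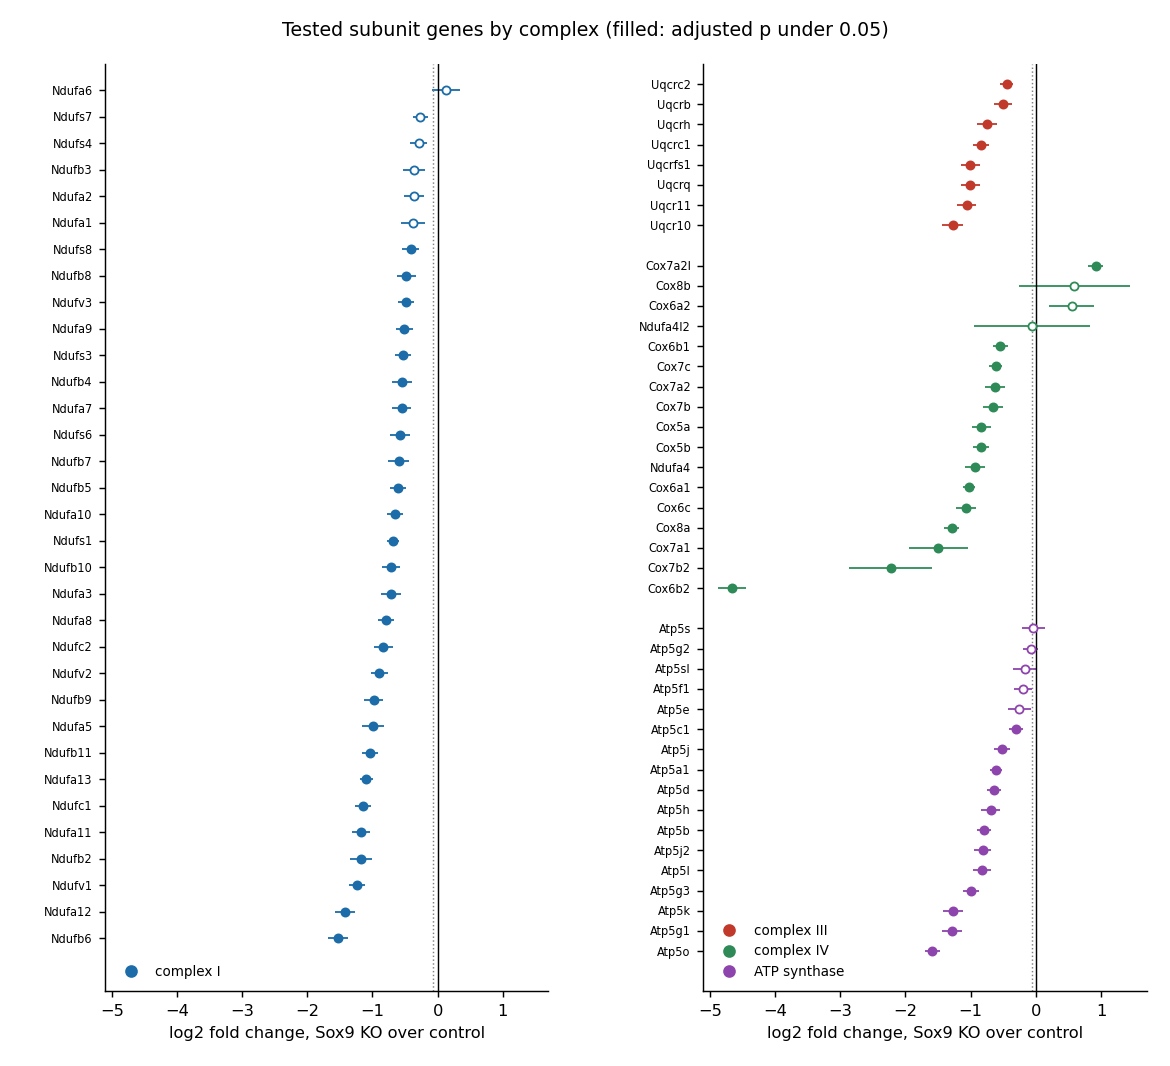
Log2 fold change of Sox9 KO over control (x axis) for 75 of the 76 tested subunit genes, sorted within each complex, with the standard error as a bar and filled points where the adjusted p was under 0.05. The dotted line marks the median of all genes tested, −0.07. All 8 complex III genes lie to its left, Cox6b2 stands furthest left at −4.66, and Cox7a2l is the only filled point to the right of 0.

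The size of the change differed between genes and between libraries. Of the 76 genes, 34 lay within 0.25 of their own median log2 fold change, and the range was −4.66 to 0.92. KO replicate 2 held the lowest of the 3 KO values for 63 genes and KO replicate 1 for 4, while control replicate 2 held the highest control value for 49. These counts were not made for all genes, so they are not read as particular to the subunit genes. The median difference of a gene from its control mean was −0.56, −0.96 and −0.63 on the log2 scale in KO replicates 1 to 3, against 0.01, 0.08 and −0.10 in the control replicates. KO replicate 2 was also the most deeply sequenced library. Without it, the median log2 fold change was −0.60 and 59 genes were called lower.

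**Figure D2:**
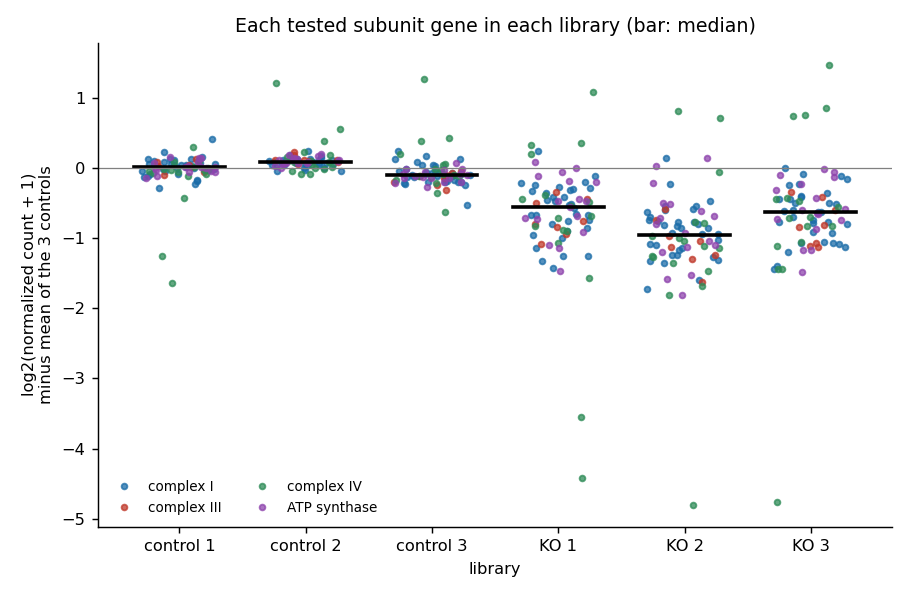
Difference of each of the 76 tested subunit genes from its mean in the 3 controls, on the scale of log2(normalized count + 1) (y axis), in each library (x axis), with a black bar at the median. The bars of the 3 KO libraries lie at −0.56, −0.96 and −0.63, under those of all controls, and the lowest point of each KO library is Cox6b2.

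In complex I, which oxidizes NADH, 28 of 34 tested genes were called lower, and the median log2 fold change was −0.67. The 7 core subunits tested here carry the flavin and the iron-sulfur clusters or build the site that meets ubiquinone, and 6 of them were called lower. Ndufv1, the subunit that binds NADH and the flavin, had 1571, 1449 and 1220.0 normalized counts in control replicates 1 to 3, against 559.9, 582 and 643 in the KO replicates. The 2 groups were well apart, and its log2 fold change was −1.24 (SE 0.12, adjusted p = 1.03e-05), the largest fall in the core. Ndufv2 changed by −0.90, adjusted p = 1.38e-04, and Ndufs1, the largest subunit of the complex, by −0.69, adjusted p = 9.92e-05. Smaller falls were found for Ndufs3 (−0.53, adjusted p = 0.00319) and Ndufs8 (−0.41, adjusted p = 0.0181). Ndufs7 overlapped between the groups and was not called (−0.26, adjusted p = 0.0808). With all libraries set to an equal total it was called lower, at −0.51, as were 33 of the 34 complex I genes. With that total taken without Rn45s it was called lower at −0.59. Under quantile normalization it was not called (−0.23), and 24 complex I genes were called lower.

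The accessory subunits of complex I surround this core. The largest falls in the complex were those of Ndufb6 and Ndufa12. Ndufb6, in the membrane arm, had 728, 709 and 574 normalized counts in control replicates 1 to 3, against 248, 202 and 246 in the KO replicates, and Ndufa12 had 861, 1136 and 1184 normalized counts in control replicates 1 to 3, against 438, 345 and 398 in the KO replicates. For both genes all KO values were below all control values, with log2 fold changes of −1.52 (SE 0.16, adjusted p = 1.24e-05) and −1.42 (SE 0.15, adjusted p = 1.86e-05). In the Ndufb group 9 of 10 genes were called lower, in the Ndufa group 9 of 12, in the Ndufs group 5 of 7 tested, and both Ndufc genes and all 3 Ndufv genes were called lower. By level per kb of transcript, Ndufc1 was the highest of the complex, at 5399.6 normalized counts per kb in control and 2429.5 in KO, followed by Ndufb9, at 3941 normalized counts per kb in control and 2010.0 in KO, with log2 fold changes of −1.14 and −0.98. The 6 complex I genes not called were Ndufa1, Ndufa2, Ndufb3, Ndufs4 and Ndufs7, with log2 fold changes from −0.38 to −0.26, and Ndufa6, at 0.12 (adjusted p = 0.636).

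In complex III, the cytochrome bc1 complex, all 8 tested genes were called lower without overlap between the groups, and the median log2 fold change was −0.93. Uqcrfs1, the Rieske iron-sulfur protein that takes electrons from ubiquinol, had 3080.5, 3378 and 2309 normalized counts in control replicates 1 to 3, against 1610.2, 1399 and 1314 in the KO replicates, and its log2 fold change was −1.01 (SE 0.14, adjusted p = 1.41e-04). The largest falls were those of the small subunits Uqcr10 and Uqcr11. Uqcr10 had 1555, 1584 and 1274 normalized counts in the controls and 690.0, 474 and 675 in KO, with KO replicate 2 lowest, and a log2 fold change of −1.27 (SE 0.16, adjusted p = 5.41e-05). Uqcr11 changed by −1.06, adjusted p = 1.20e-04. Uqcrh, the hinge protein near cytochrome c1, was the highest of the complex per kb, at 4386 normalized counts per kb in control and 2656 in KO. The core proteins Uqcrc1 and Uqcrc2 changed by −0.85 and −0.45, the latter being the smallest fall in the complex.

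Complex IV, cytochrome c oxidase, held both the largest fall and the only rise called. Of 17 tested genes 13 were called lower and 1 higher, and the median log2 fold change was −0.83. Among the 11 genes with a mean over 500 normalized counts, 10 were called lower and Cox7a2l higher. Cox8a, the main form of the smallest subunit, had 4906, 4647 and 4237 normalized counts in control replicates 1 to 3, against 2178, 1786 and 1697 in the KO replicates, with all KO values under all control values and a log2 fold change of −1.29 (SE 0.11, adjusted p = 3.65e-06). Cox6a1 and Cox7c, the most abundant of the complex per kb by the mean over all libraries, were at 8039 normalized counts per kb in control and 3946 in KO and at 7236 normalized counts per kb in control and 4719 in KO, and they changed by −1.03 and −0.62. Ndufa4 had a log2 fold change of −0.93 and Cox5a, Cox5b and Cox6c ones of −0.83, −0.84 and −1.07.

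Several complex IV subunits come in pairs, of which 1 gene is used widely and the other mainly in muscle, testis or other restricted tissues. Cox6b2, best known from testis, is the counterpart of the widely used Cox6b1, and their protein sits on the side of the complex that faces the intermembrane space. Cox6b2 had 991, 763 and 697 normalized counts in control replicates 1 to 3, against 36.7, 28.0 and 28.9 in the KO replicates, so that its lowest control value was far above its highest KO value. Its mean was 817 ± 154 against 31.2 ± 4.80 (SD, n = 3 per group), 26.2-fold lower in KO, and its log2 fold change was −4.66 (SE 0.22, adjusted p = 5.27e-08). Cox6b1 had 1559, 1507 and 1601 normalized counts in the controls and 1195, 905 and 1123 in KO, and changed by −0.54, adjusted p = 0.00252. Per kb of transcript, the share of Cox6b2 in the sum of the pair was 41.5%, 36.1% and 32.7% in control replicates 1 to 3, against 3.32%, 3.34% and 2.79% in the KO replicates. The mean share fell from 36.8% ± 4.44 to 3.15% ± 0.312 (SD, n = 3 per group), with no overlap. An exact two-sided permutation test gave p = 0.1, the smallest that 3 against 3 libraries allow, and 0.125 after adjustment over the 10 isoform shares compared. Within the libraries, its fall ran beside that of the astrocyte markers, whose median was −3.63, and their part in it was not tested.

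The other minor isoforms were rare. Cox7b2 had 21.9, 29.6 and 17.3 normalized counts in the controls and 0.993, 6.32 and 7.60 in KO, a log2 fold change of −2.23 (SE 0.64, adjusted p = 0.0113). Cox7a1, the muscle and heart form, had 39.5, 55.1 and 23.6 normalized counts in the controls and 11.9, 9.87 and 16.7 in KO, a log2 fold change of −1.50 (SE 0.45, adjusted p = 0.0146). For both genes every KO value lay under every control value, but both calls were lost under quantile normalization and without control replicate 2, with log2 fold changes of −1.41 and −2.03 for Cox7b2 and −0.64 and −1.22 for Cox7a1. Cox6a2, the muscle form of Cox6a1, had 29.2, 40.6 and 52.0 normalized counts in the controls and 45.7, 65.1 and 66.8 in KO, and was not called (0.55, adjusted p = 0.189). Its share of the Cox6a pair per kb was 0.737% ± 0.209 in control, against 2.19% ± 0.580 in KO (SD, n = 3 per group). Cox8b and Ndufa4l2 stayed under 10 normalized counts in every library, and neither was called. The main forms Cox7a2 and Cox7b were called lower, with log2 fold changes of −0.63 and −0.66. In their pairs, the share of Cox7a1 was 4.08% in control and 2.10% in KO, that of Cox7b2 2.04% and 0.746%, and that of Cox4i2, set against Cox4i1, 0.346% and 0.582%. The shares of these 3 genes and of Cox6a2 did not overlap between the groups, each with an exact permutation p of 0.1 and 0.125 after adjustment, and all were small. Scaling a whole library by 1 factor leaves such a share unchanged, but quantile normalization moved the differences. That of Cox7a1 went from −1.98 to −0.20 percentage points and that of Cox7b2 from −1.29 to −0.47. That of Cox4i2 went from 0.24 to 0.61 and that of Cox6a2 from 1.45 to 2.54.

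Cox7a2l, also known as Scaf1, encodes a relative of Cox7a2 that is described as joining complex III to complex IV in respiratory supercomplexes. Neither supercomplexes nor the allele of this gene in the mice used were examined here. It had 1971, 1999.9 and 2448 normalized counts in control replicates 1 to 3, against 4511, 3736 and 3854 in the KO replicates. The lowest KO value was above the highest control value. The mean was 2139.7 ± 267 against 4034 ± 418 (SD, n = 3 per group), a KO to control ratio of 1.89, and the log2 fold change was 0.92 (SE 0.11, adjusted p = 5.39e-05). Under quantile normalization and with libraries set to an equal total it stayed called higher, at 0.70 and 0.67. In the same libraries Cox7a2 fell from 1524 to 1002 normalized counts, and microglia markers rose by a median of 1.97, and their part in this rise was not tested.

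In ATP synthase 12 of 17 genes were called lower, and the median log2 fold change was −0.64. The catalytic F1 head holds Atp5b, the β subunit with the catalytic sites, and Atp5a1, the α subunit. Atp5b had 27212, 33042 and 28355 normalized counts in control replicates 1 to 3, against 17718, 15449.6 and 17613 in the KO replicates, a fall without overlap, with a log2 fold change of −0.80 (SE 0.11, adjusted p = 8.53e-05). Per kb of transcript it was the highest of all 78 genes, at 15416 normalized counts per kb in control and 8835 in KO. Atp5a1 had 13383, 14914 and 13622 normalized counts in the controls and 9512, 8676 and 9194 in KO, and changed by −0.61, adjusted p = 1.33e-04. Of the 5 genes of the F1 head 4 were called lower, with Atp5c1 at −0.31 and Atp5d at −0.64, and Atp5e was not called (−0.25, adjusted p = 0.228). The call of Atp5c1 was lost in edgeR (−0.25, adjusted p = 0.0847) and with a replicate block (adjusted p = 0.0542). With an equal total, 15 of the 17 genes were called lower, Atp5e among them at −0.50. Under quantile normalization 13 were called lower, and Atp5e was not called (−0.11).

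The peripheral stalk holds the head in place. Atp5o, its oligomycin sensitivity-conferring protein, showed the largest fall of the complex, with 2819, 3144 and 2709.5 normalized counts in control replicates 1 to 3, against 1039, 819.5 and 1032 in the KO replicates, and a log2 fold change of −1.59 (SE 0.12, adjusted p = 1.17e-06). An exon of Donson overlaps Atp5o on the same strand and a near-identical copy lies elsewhere, so that the counting may have split its reads. Of the other stalk genes, Atp5h and Atp5j were called lower (−0.69 and −0.52) and Atp5f1 was not (−0.20, adjusted p = 0.236), though it was with an equal total (−0.44) and under quantile normalization (−0.49). The small membrane subunits Atp5k, Atp5l and Atp5j2 were called lower, with log2 fold changes of −1.28, −0.82 and −0.82. The 2 genes that are not subunits, Atp5s and Atp5sl, were not called, at −0.04 and −0.17.

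The rotating c ring is built from 1 protein that 3 genes encode, each with its own import signal, so that the same mature protein can come from any of them. Atp5g1 had 2161, 2488 and 1877 normalized counts in control replicates 1 to 3, against 1009.6, 718 and 957 in the KO replicates, and Atp5g3 had 2717, 2462 and 2215 normalized counts in the controls and 1306, 1073 and 1339.9 in KO. In both, all KO values were under all control values, with log2 fold changes of −1.29 (SE 0.15, adjusted p = 3.22e-05) and −0.99 (SE 0.12, adjusted p = 3.92e-05). Atp5g2 had 1321, 1539 and 1523 normalized counts in the controls and 1547, 1251 and 1355 in KO, with the groups mixed, and a log2 fold change of −0.08 (SE 0.11, adjusted p = 0.564). As a share of the 3 genes per kb, Atp5g2 was 19.6%, 21.6% and 25.0% in control replicates 1 to 3, against 37.5%, 38.7% and 34.7% in the KO replicates. Its mean share was 22.1% ± 2.74 in control, against 37.0% ± 2.05 in KO (SD, n = 3 per group), while that of Atp5g1 was 40.0% ± 2.64 in control, against 29.1% ± 1.63 in KO (SD, n = 3 per group) and that of Atp5g3 38.0% ± 2.94 in control, against 33.9% ± 1.37 in KO (SD, n = 3 per group). None of these shares overlapped between the groups. For Atp5g3 they came close, with a lowest control share of 35.5% and a highest KO share of 35.2%. Each had an exact permutation p of 0.1, the smallest possible, and 0.125 after adjustment over the 10 shares. The 3 shares are parts of 1 whole in each library and not separate results. When the libraries were set to an equal total, Atp5g2 was called lower too, at −0.32 on the log2 scale. Atp5g1 and Atp5g2 have near-identical copies elsewhere in the transcript set.

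**Figure D3:**
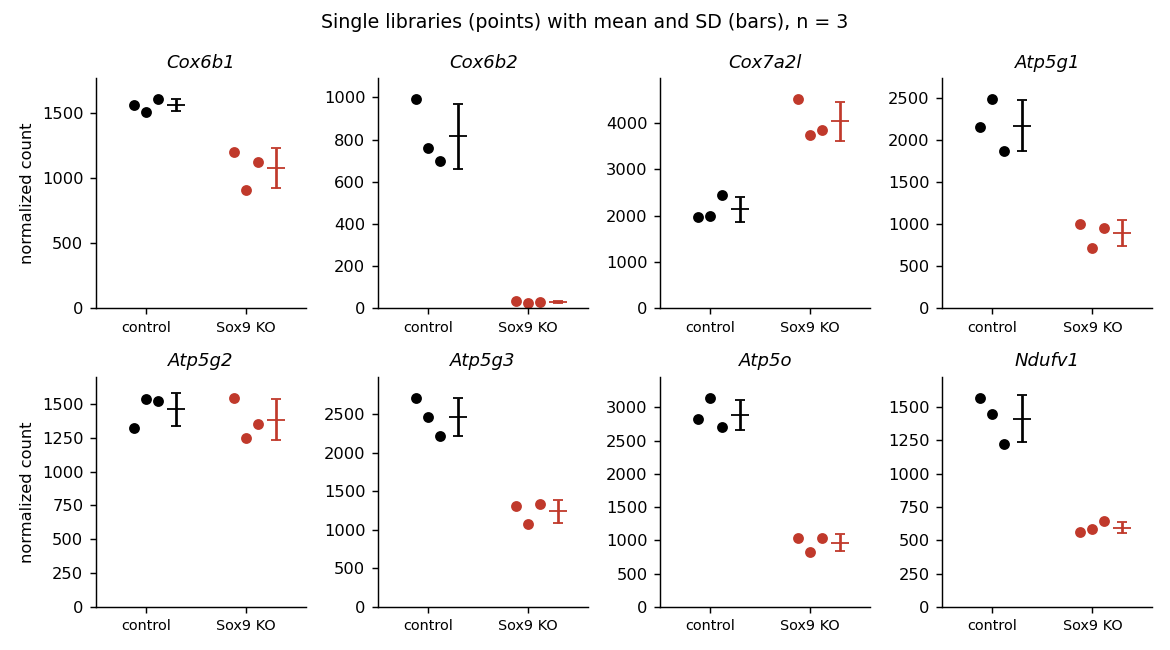
Normalized counts (y axes, from 0) of 8 subunit genes in each library (points, n = 3 per group) with the mean and SD as bars beside them. Cox6b2 falls from 817 to 31.2 while Cox6b1 keeps 1074 of 1556, Cox7a2l is the gene that is higher in KO, and Atp5g2 is the panel in which the groups mix.

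Of the sequences upstream of these genes, 4 are shown. Other genes whose change differed from that of most, such as Ndufa6, were left out. The genes shown are some whose change differed and the partner of 1 of them. They are Cox6b2 (chromosome 7, 4751792 to 4753094, minus strand, 4 exons), Cox6b1 (chromosome 7, 30616971 to 30626114, minus strand, 4 exons), Cox7a2l (chromosome 17, 83501917 to 83514333, minus strand, 3 exons) and Atp5g2 (chromosome 15, 102662868 to 102671047, minus strand, 5 exons). Each sequence is the 250 bases before the start of the gene, on its strand, from RefSeq on GRCm38.p6, the assembly also named mm10, and gene coordinates are from RefSeq too. The positions are chr7:4753095-4753344, chr7:30626115-30626364, chr17:83514334-83514583 and chr15:102671048-102671297, all on the minus strand. Capitals mark GCGCATGC, the core of the site of NRF1, a factor known for nuclear genes of mitochondria, which occurs there on both strands in overlap.
Cox6b2: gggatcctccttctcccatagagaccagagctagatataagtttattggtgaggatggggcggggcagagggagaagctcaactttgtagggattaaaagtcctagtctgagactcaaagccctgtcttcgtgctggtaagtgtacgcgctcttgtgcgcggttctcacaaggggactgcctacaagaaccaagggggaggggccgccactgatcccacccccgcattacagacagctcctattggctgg
Cox6b1: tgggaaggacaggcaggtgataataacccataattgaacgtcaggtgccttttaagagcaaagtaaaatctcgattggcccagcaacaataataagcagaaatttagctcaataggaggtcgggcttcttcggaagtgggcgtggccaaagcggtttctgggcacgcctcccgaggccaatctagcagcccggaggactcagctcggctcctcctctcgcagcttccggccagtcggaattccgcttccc
Cox7a2l: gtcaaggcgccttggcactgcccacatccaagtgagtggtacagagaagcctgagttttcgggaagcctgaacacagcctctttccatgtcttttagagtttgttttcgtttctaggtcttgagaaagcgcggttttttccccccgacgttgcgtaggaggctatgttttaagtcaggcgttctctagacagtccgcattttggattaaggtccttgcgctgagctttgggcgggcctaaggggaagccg
Atp5g2: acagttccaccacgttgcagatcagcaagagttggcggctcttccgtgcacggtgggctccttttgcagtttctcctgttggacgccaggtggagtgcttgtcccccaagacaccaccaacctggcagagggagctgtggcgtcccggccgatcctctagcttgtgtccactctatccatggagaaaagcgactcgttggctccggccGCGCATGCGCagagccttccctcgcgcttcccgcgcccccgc
The windows of Cox6b2, Cox6b1 and Cox7a2l held none of the motifs searched.

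A window of 300 bases, from 250 before the start to 50 after it, was found in RefSeq for 66 of the 78 genes. Motifs were searched as exact letters on both strands. The NRF1 core GCGCATGC was in 9 of the 66 (13.6%), beside 2.80% of 27025 windows of all genes. Those windows cover RefSeq genes whether or not they were tested here, and were not matched to the subunit genes in level or base content. The GABP core ACCGGAAG was in 4 (6.06%), beside 2.34%, and the YY1 core AAGATGGC was in 10 (15.2%), beside 2.88%. At least 1 of these 3 was in 23 (34.8%), beside 7.67% of all windows. ACAATG, a core that SOX factors bind, was in 9 (13.6%), beside 12.8%. The median log2 fold change was −0.85 with and −0.68 without the NRF1 core, −0.47 with and −0.74 without the GABP core, −0.49 with and −0.80 without the YY1 core, and −0.83 with and −0.71 without ACAATG. Such matches describe letters and not bound sites.

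Genes of the same pathway that the symbol rule leaves out were read from fixed lists. Their counts of calls stand beside 32.0% of all genes tested called lower and 29.3% called higher. Of 11 further nuclear subunits 9 were called lower and none higher, as by edgeR and DESeq2 and at an unadjusted p under 0.05, and their median log2 fold change was −0.65. They include Cox4i1, the largest nuclear-encoded subunit of complex IV (−1.15, adjusted p = 3.72e-06), Cyc1, the cytochrome c1 of complex III (−1.13, adjusted p = 3.84e-06), and Sdha, Sdhb and Sdhc of complex II (−0.44, −0.51 and −0.75). Sdhd, the remaining subunit of complex II, was at 2399 normalized counts in control and 2414 in KO (0.00, adjusted p = 0.988). It was at −0.24 with an equal total, not called, and was called lower with that total taken without Rn45s (−0.32, adjusted p = 0.021). In the TCA cycle, which supplies the NADH, 11 of 14 genes were called lower and 1 higher, with a median of −0.84. The largest fall was that of Idh3a, of the NAD-dependent isocitrate dehydrogenase, with 2309, 2605 and 2074 normalized counts in the controls and 668, 669.5 and 687 in KO and a log2 fold change of −1.78 (SE 0.11, adjusted p = 2.81e-07). Idh2, the NADP-dependent enzyme, was the gene called higher, at 0.92, adjusted p = 1.96e-04.

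Calls in both directions were found among the factors that assemble the complexes, and they depended on the scaling of the libraries. They are read here beside the 32.0% of all genes called lower and the 29.3% called higher, near which several of these counts lie. Of 15 complex I assembly genes 4 were called lower and 1 higher, with a median of −0.17, while edgeR called 4 lower and 3 higher. Of 6 complex III assembly genes 3 were called lower and none higher by limma, where 1 gene was higher at an unadjusted p under 0.05 and edgeR called 1 higher. The largest fall there was that of Lyrm7 (−1.65, adjusted p = 2.35e-04), a chaperone of the Rieske protein. Of 19 tested complex IV assembly genes 4 were called lower and 6 higher, with a median of 0.20 and the largest rise in Coa4 (1.37, adjusted p = 0.00191), and Sco2 and Pet117 were listed at 0. For these 19 genes edgeR called 2 lower and 7 higher. Of 4 genes that assemble or inhibit ATP synthase, none was called by limma or DESeq2, 1 was higher at an unadjusted p under 0.05 in limma, and edgeR called 1 higher. Under quantile normalization 2 complex I assembly genes were called lower and 6 higher, and 0 and 9 of those for complex IV, while with libraries set to an equal total the counts were 6 and 0, and 5 and 4. The difference between these lists and the subunits was not tested.

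Among 16 regulators of mitochondrial genes and factors that maintain mitochondrial DNA, 2 were called lower and 9 higher, beside 32.0% and 29.3% of all genes, with a median of 0.47. With libraries set to an equal total the counts were 2 and 4, under quantile normalization 1 and 12, and by edgeR 1 and 10. Ppargc1a, which encodes the coactivator PGC-1α, had 5049, 3980.5 and 4585 normalized counts in control replicates 1 to 3, against 265, 381 and 314 in the KO replicates, and every KO value was far under every control value. Its mean was 4538 ± 536 against 320.0 ± 57.9 (SD, n = 3 per group), with a log2 fold change of −3.83 (SE 0.15, adjusted p = 1.81e-08). Its relatives Ppargc1b and Pprc1 were called higher (1.07 and 0.75), as were Nrf1 (0.68), Gabpa (0.33), Gabpb1 (0.98) and Yy1 (0.52). With an equal total, Nrf1 and Gabpa were no longer called (0.44 and 0.09), and Gabpa was not called under quantile normalization either. With the total taken without Rn45s, Yy1 was not called (0.19, adjusted p = 0.135). Polrmt, the mitochondrial RNA polymerase, was the other gene called lower (−0.37, adjusted p = 0.0477), a call that was lost in edgeR (−0.32, adjusted p = 0.0837), with a replicate block (adjusted p = 0.082) and under quantile normalization (0.02). The astrocyte and microglia markers moved with these genes too, and their part in these differences was not tested.

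**Figure D4:**
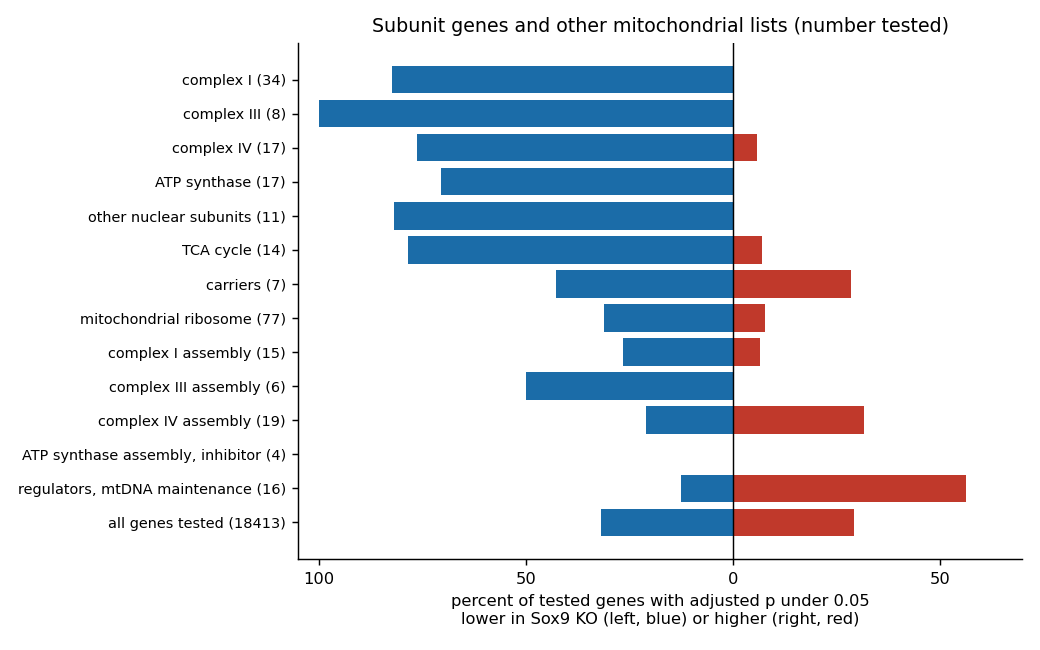
Percent of tested genes with an adjusted p under 0.05 that were lower (blue, to the left) or higher (red, to the right) in Sox9 KO, for the 4 complexes, for other mitochondrial lists and for all genes tested, with the number tested in brackets. All 8 genes of complex III reach 100% to the left, all genes tested stand at 32.0% and 29.3%, and the regulators have more called genes to the right, 9 of 16, than to the left, a balance that the scaling of the libraries moves.

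Sequence and annotation set limits on single genes. Of the 78 genes, 13 had a near-identical copy, at 95% identity or more over at least 50% of the transcript, and 28 shared exon bases with another gene, 5 of them on the same strand. Without all of these, 43 tested genes remained, of which 33 were called lower and 1 higher, beside 32.0% and 29.3% of all genes tested. Their median log2 fold change was −0.80. Subunit transcripts are short. The median length of the 71 tested genes with a mean of at least 100 was 742 bases, beside 3053 for 11501 genes of that level. Across these 71 genes the log2 fold change and transcript length had a Spearman rho of 0.23, and across the 11501 genes one of −0.06, which describes genes of the same 6 libraries and not independent points.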

How the data were processed

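Per the labels and the study's methods, the authors aligned reads to mm10 with STAR 2.5.0a, took gene counts with the R packages GenomicFeatures and GenomicAlignments, and normalized with DESeq2 1.20.0. For the annotation and strandedness of the counting, nothing was stated (not given in the sources used here). Each deposited signal is named RPM, but all of its values (100% per library) came out as whole reads, within 0.01 read, once divided by the value of 1 read, and that value was the inverse of the median-of-ratios size factor. These values are called normalized counts here. Genes with a mean of at least 1 were tested on log2(normalized count + 1) in R 4.3.3 by limma 3.58.1, with a variance trend, no replicate block and two-sided p-values. The pseudocount understates changes of low genes. The recovered reads were also tested with edgeR 4.0.16 and DESeq2 1.42.0, and the test was checked on simulated data.

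Isoform shares were compared per kb of transcript (GENCODE M21) with exact permutation tests. Libraries come from separate mice. Genes named are the largest changes called in each direction and the highest per kb in each complex, with core subunits, isoforms and genes under the filter. The values of 1 gene that this rule would name are not reported here. Others are named to complete a list and were chosen with their values seen. The genes and lists were chosen with earlier results of these data known. The shares of Cox6b2 and Cox7b2, the motif ACAATG and the overlap and copy checks were added after the data were seen.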

Additional observations from a re-analysis of the deposited data

How the results depend on the processing

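The count of subunit genes called lower stayed between 56 and 70 under every alternative of pseudocount, filter, scaling, variance model, tool, block and left-out library, beside 61 as reported, and with the 1.5-fold threshold it was 48. The count called higher was 1 in all of these except quantile normalization, where it was 2, with Cox6a2 added at 1.39. The median log2 fold change was −0.95 with all libraries set to an equal total and −1.03 with that total taken without Rn45s, beside −0.71, while these scalings moved the median of all genes by −0.23 and −0.31, and quantile normalization moved it by 0.27. Leaving out each library in turn gave medians from −0.77 to −0.60, from 56 to 61 genes lower and 1 higher. Quantile normalization also moved the difference in isoform share, in percentage points of KO minus control, to 2.54 for Cox6a2 (1.45 as deposited), −0.20 for Cox7a1 (−1.98), 0.61 for Cox4i2 (0.24) and −0.47 for Cox7b2 (−1.29). The cause of these shifts was not tested. Ndufa4l2 and Cox8b, both under 10 normalized counts, changed sign, Ndufa4l2 to 0.47 under quantile normalization, 0.57 without control replicate 3 and 0.54 without KO replicate 2, and Cox8b to −0.23 without control replicate 1. Over the left-out libraries Ndufa4l2 ranged from −0.69 to 0.57 and Cox8b from −0.23 to 1.20. Ndufs8 lost its call without a variance trend and without control replicate 1, control replicate 2 or KO replicate 2 (−0.41, −0.37, −0.36 and −0.32). Same-numbered libraries did not deviate together (correlations of −0.05, −0.01 and −0.01), which cannot tell whether they were prepared together. With a replicate block 60 genes were called lower and 1 higher, with the same median of −0.71. Quantile normalization called 25.6% of all genes lower and 36.6% higher, and the same total called 37.7% and 21.2%. A single read was worth up to 1.58 normalized counts, which limits Cox8b, Ndufa4l2 and Cox7b2.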

Other observations

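Of 77 genes of the mitochondrial ribosome, which translates the subunits that the mitochondrial genome encodes, 24 were called lower and 6 higher, beside 32.0% and 29.3% of all genes, and the median log2 fold change was −0.22. By edgeR 17 were called lower and 7 higher. The balance turned with the scaling, to 9 lower and 18 higher under quantile normalization and 43 and 2 with libraries set to an equal total. Mrps6 showed the largest fall, with 491, 532 and 612 normalized counts in the controls and 80.4, 87.6 and 112 in KO, and a log2 fold change of −2.54 (SE 0.19, adjusted p = 1.25e-06). Mrpl24 showed the largest rise, at 0.68, adjusted p = 0.00265, and was not called with the total taken without Rn45s (0.35, adjusted p = 0.0625).

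The carriers of the mitochondrial membranes changed in both directions, with 3 of 7 called lower and 2 higher, beside the same 32.0% and 29.3% of all genes. Under quantile normalization and with an equal total, taken with or without Rn45s, 5 were called lower and 1 higher. The adenine nucleotide carriers Slc25a4 and Slc25a5 exchange ADP and ATP across the inner membrane. Slc25a4, the heart and muscle form, had 11901, 13735 and 11177 normalized counts in the controls and 3687, 3533 and 3792 in KO, a log2 fold change of −1.74 (SE 0.10, adjusted p = 1.51e-07). Slc25a5 had 9582, 10392 and 7925 normalized counts in the controls and 13806, 10823 and 12232 in KO, a log2 fold change of 0.40 (SE 0.12, adjusted p = 0.0163) that was −0.09 under quantile normalization and 0.16 with an equal total, neither of them called. Ucp2, a carrier of the inner membrane that is high in macrophages, had 5170.2, 6195 and 5132 normalized counts in the controls and 17360.0, 17065 and 14971 in KO, a log2 fold change of 1.58 (SE 0.10, adjusted p = 4.87e-07). In all 3, the groups did not overlap. Vdac1, a pore of the outer membrane, was called lower (−1.38, adjusted p = 4.38e-07), and Slc25a3, the phosphate carrier, was not called (−0.18, adjusted p = 0.119) but was lower with an equal total (−0.42) and under quantile normalization (−0.66). The marker sums of astrocytes and microglia moved with these genes as well, and their part was not tested.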
